A study of Mus musculus with 10 samples.

Results

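The 10 genes described here encode the mTOR kinase, subunits of its 2 complexes, the switch and brakes of complex 1 and its 2 best known targets. They were chosen by symbol from the table of adjusted expression, and all 10 (Mtor, Rptor, Rictor, Deptor, Rheb, Tsc1, Tsc2, Sesn1, Rps6kb1 and Eif4ebp1) were found among its 13492 genes. RNA came from the tibialis anterior, a fast muscle of the shin, of C57BL/6 mice aged 6 months after 3 h without food. There were 5 libraries labelled Lrtm1 KO and 5 labelled Lrtm1 WT, the second being floxed controls by the design text, which gives fewer animals per group than the labels do. Litter 108 gave 2 knockout and 1 control libraries, litter 110 gave 1 and 2, and litter 112 gave 2 of each. The sources used here do not give the driver of the deletion, the part of Lrtm1 that it removes, or any other allele or treatment of either group.

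mTOR complex 1 is a protein kinase that promotes protein synthesis and growth when insulin, amino acids and energy are plentiful. Insulin acts through AKT, which lifts the TSC brake from the small GTPase Rheb, while amino acids act through the Rag GTPases at the lysosome. In skeletal muscle the complex drives the rise in protein synthesis after feeding or loading and holds back autophagy. Most of this control works through phosphorylation, which RNA levels do not measure.

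All values are log2 CPM that the authors deposited after an adjustment, and the read depth behind them is unknown. Fits with and without a litter term gave the same differences, so litter had been taken out of the values. Only 3 of the 6 residual dimensions that litter and genotype leave are still present in the values, so 3 further terms had been removed. The test used here is limma's, with Benjamini-Hochberg adjustment over 12223 genes and a threshold of 0.05, and it counts those 3 terms. A simpler fit, with litter and genotype only, gives identical differences over all 10 libraries but counts 6 residual degrees of freedom where 3 remain. Its p-values are too small, and they are printed as those of the simpler fit. When 1 library is left out the differences of the 2 fits part, because the removed terms were found with all 10. The labels do not say that libraries came from separate animals, so the spread behind each p-value is that between libraries and may be technical. Lrtm1 itself was higher in the libraries labelled knockout, at 6.12 ± 0.10 log2 CPM against 5.68 ± 0.07 (SD, n = 5 each; limma adjusted p = 0.0344). When 1 library at a time was left out, the difference of 0.44 ran from 0.31 to 0.50. It passed in 2 of 10 cases, without control replicate 4 or knockout replicate 4. The share of all genes that passed in such fits ran from 0.00818% to 0.442%, against 0.335% with all 10 libraries. The level of the targeted gene therefore goes against the labels, and a gene-level value checks nothing if reads come from outside the deleted part. Each direction below is between libraries as labelled.

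The starts of these genes are shown because the differences described below are in transcript level. Of the 10 members 8 had a promoter in the RefSeq table for GRCm38.p6, 9 starts in all, each a window of 250 bases before the start and 50 after. The windows of the 9 starts held 13 to 47 CG pairs, where the median of 32851 windows of the table was 7. The sequences run 5′ to 3′ on the strand of the gene, and capitals mark the motif named after them. Tsc1, Tsc2 and Rps6kb1 are shown as the matched members with the most separate groups, and Rheb and Sesn1 for the motif each holds.
Tsc1, chr2:28640983-28641282, plus strand: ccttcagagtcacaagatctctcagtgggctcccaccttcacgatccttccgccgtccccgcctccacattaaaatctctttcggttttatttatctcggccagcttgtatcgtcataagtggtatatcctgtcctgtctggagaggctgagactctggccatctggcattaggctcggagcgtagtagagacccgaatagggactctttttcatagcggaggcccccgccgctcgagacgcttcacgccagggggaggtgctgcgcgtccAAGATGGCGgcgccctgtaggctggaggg
Tsc2, chr17:24632578-24632877, minus strand: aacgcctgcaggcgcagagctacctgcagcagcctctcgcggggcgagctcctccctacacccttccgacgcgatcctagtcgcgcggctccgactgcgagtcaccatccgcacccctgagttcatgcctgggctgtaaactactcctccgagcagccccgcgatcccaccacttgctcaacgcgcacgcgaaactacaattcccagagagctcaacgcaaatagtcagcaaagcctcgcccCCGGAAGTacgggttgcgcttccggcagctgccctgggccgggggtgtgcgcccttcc
Rps6kb1, chr11:86544758-86545057, minus strand: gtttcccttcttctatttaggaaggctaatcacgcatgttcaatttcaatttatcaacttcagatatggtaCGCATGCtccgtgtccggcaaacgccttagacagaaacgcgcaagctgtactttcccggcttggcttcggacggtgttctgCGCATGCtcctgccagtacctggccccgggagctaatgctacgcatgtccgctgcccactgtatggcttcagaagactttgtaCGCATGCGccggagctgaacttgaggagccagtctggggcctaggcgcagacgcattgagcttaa
Rheb, chr5:24842312-24842611, minus strand: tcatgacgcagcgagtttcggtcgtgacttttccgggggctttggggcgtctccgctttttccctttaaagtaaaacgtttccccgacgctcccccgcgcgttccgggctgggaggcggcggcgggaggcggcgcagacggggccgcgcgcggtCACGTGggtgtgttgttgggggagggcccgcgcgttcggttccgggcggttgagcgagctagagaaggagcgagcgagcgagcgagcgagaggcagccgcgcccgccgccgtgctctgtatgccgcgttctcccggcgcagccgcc
Sesn1, chr10:41810324-41810623, plus strand: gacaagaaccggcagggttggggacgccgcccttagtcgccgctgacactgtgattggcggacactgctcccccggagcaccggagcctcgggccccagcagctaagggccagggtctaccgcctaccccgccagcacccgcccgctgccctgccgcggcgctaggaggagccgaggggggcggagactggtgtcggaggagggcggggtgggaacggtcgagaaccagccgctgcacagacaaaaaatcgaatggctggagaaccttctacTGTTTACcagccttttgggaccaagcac

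Of 7 motifs searched on both strands, 4 were chosen for regulators of muscle metabolism and 3 after the sequences were seen. The E-box CACGTG, read by TFEB and by clock factors, was found in 7.15% of all windows and, among the members, in Rheb, 96 bases before the start. The FoxO core GTAAACA was found in 3.65% of all windows and in 1 of the 2 Sesn1 starts, as TGTTTAC from 23 bases after the start. Neither AAAGGTCA, a site for NR4A receptors (1.51% of windows), nor TGACGTCA, the cyclic AMP response element (1.79%), was found in a member's window. Of the motifs chosen later, CGCATGC, a core of the NRF1 motif, was found in 3.58% of windows. Rps6kb1 held it at 3 places, first bases 179, 98 and 15 bases before the start, and the last of these is also read on the other strand. The ETS motif CCGGAAGT (3.89% of windows) was found in Tsc2 and Mtor, and the YY1 motif AAGATGGCG (1.40%) in Tsc1, from 22 bases after the start. No 2 of these different motifs overlapped in a member. A match describes letters only and is no evidence that a factor binds.

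No member passed the test that counts the removed terms, where 0.335% of all genes tested did, 0.270% higher and 0.0655% lower. Of the 10, 9 had a difference above 0 in the libraries labelled knockout, against 48.6% of all genes tested, and Rps6kb1 alone lay below 0. The median log2 difference of the members was 0.11, and that of all genes was -0.0041. Unadjusted p-values lay under 0.05 for 3 members (Deptor, Rps6kb1 and Tsc1), as they did for 10.1% of all genes. The same 3 passed in the simpler fit, Deptor and Tsc1 higher and Rps6kb1 lower, where 8.62% of all genes passed, 5.15% higher and 3.48% lower. The groups did not overlap in 6 members, against 16.2% of all genes tested (8.56% higher and 7.63% lower). The part of the authors' adjustment in these shares was not tested. These 6 were Deptor, Tsc1, Tsc2, Rheb and Eif4ebp1, all higher in the libraries labelled knockout, and Rps6kb1, lower.

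**Figure D1:**
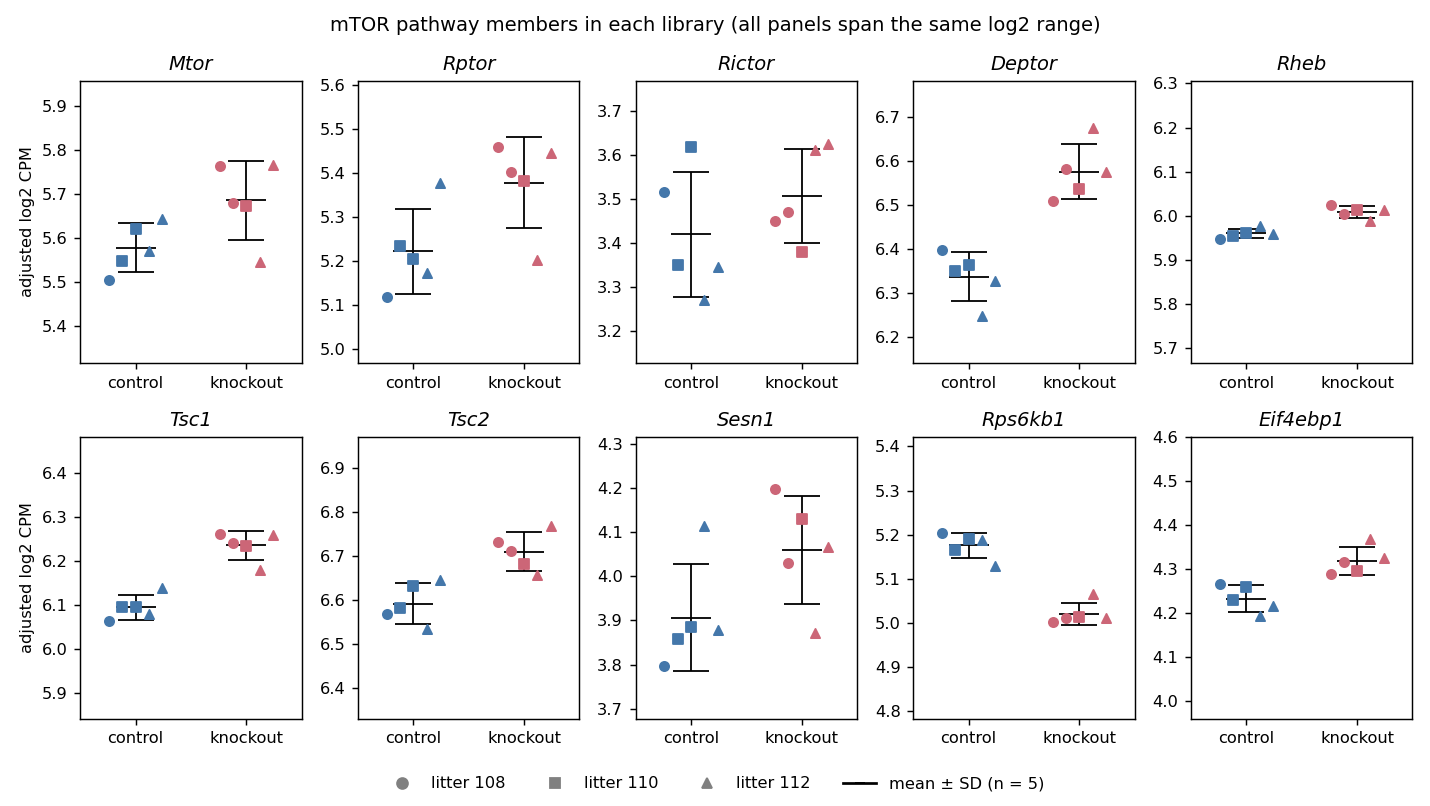
Adjusted log2 CPM of each member (y axis) in the 5 control and 5 knockout libraries, with marker shape for the litter and bars for the mean ± SD. The groups do not overlap in Deptor, Rheb, Tsc1, Tsc2, Rps6kb1 and Eif4ebp1, and Rps6kb1 is the one member that is lower in the libraries labelled knockout.

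Deptor (ENSMUSG00000022419), an inhibitor that binds mTOR in both complexes, had the largest difference of the 10. It stood at 6.40, 6.35, 6.36, 6.25 and 6.33 log2 CPM in control replicates 1, 3, 4, 5 and 6. In knockout replicates 1 to 5 it stood at 6.51, 6.58, 6.54, 6.67 and 6.58 log2 CPM. The lowest knockout library thus lay above the highest control, with control replicate 5 the lowest of all and knockout replicate 4 the highest. The means were 80.9 ± 3.12 CPM in controls and 95.5 ± 4.23 CPM in the libraries labelled knockout (SD, n = 5 each), a ratio of 1.18. The log2 difference was 0.24 (SE 0.06, 95% interval 0.10 to 0.37; limma adjusted p = 0.201, and 0.013 in the simpler fit). Without knockout replicate 3, the only knockout library of litter 110, the simpler fit gave an adjusted p of 0.0511.

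Tsc1 (ENSMUSG00000026812) and Tsc2 (ENSMUSG00000002496) encode hamartin and tuberin, the partners of the TSC complex that keeps Rheb inactive. Tsc1 stood at 6.06, 6.09, 6.09, 6.08 and 6.14 log2 CPM in the controls, in the order given above. In the libraries labelled knockout it stood at 6.26, 6.24, 6.23, 6.18 and 6.26. Knockout replicate 4 was the lowest of its group and still lay above control replicate 6, the highest of the controls. Tsc1 means were 68.3 ± 1.35 and 75.3 ± 1.71 CPM (SD, n = 5 each), with a log2 difference of 0.14 (SE 0.05, 95% interval 0.02 to 0.26; limma adjusted p = 0.405, and 0.0192 in the simpler fit). The simpler fit lost Tsc1 without control replicate 1 or 3 (adjusted p = 0.132 and 0.0572) or knockout replicate 1, 2, 3 or 5 (0.0567, 0.0656, 0.103 and 0.0584).

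Tsc2 ranged from 6.53 to 6.65 log2 CPM in controls and from 6.66 to 6.77 in the libraries labelled knockout, so its groups were separated by a narrow gap. Its means were 96.5 ± 3.09 and 104.8 ± 3.19 CPM (SD, n = 5 each), and the log2 difference was 0.12 (SE 0.06, 95% interval -0.01 to 0.24; limma adjusted p = 0.523, and 0.063 in the simpler fit). Both partners differed by a like amount. The log2 difference of Tsc1 minus Tsc2 was -0.50 ± 0.03 in controls and -0.48 ± 0.02 in the libraries labelled knockout (SD, n = 5 each), and these ranges overlapped.

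Rheb (ENSMUSG00000028945) is the GTPase that switches mTOR complex 1 on at the lysosome. It had the smallest difference of the 10, 0.05 (SE 0.05, 95% interval -0.07 to 0.16; limma adjusted p = 0.812, and 0.204 in the simpler fit). It was also the least variable, from 5.95 to 5.98 log2 CPM in controls and from 5.99 to 6.02 in the libraries labelled knockout. The groups therefore did not overlap although the means, 62.2 ± 0.484 and 64.4 ± 0.592 CPM (SD, n = 5 each), differed by 3.43%.

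Rps6kb1 (ENSMUSG00000020516) encodes the S6 kinase S6K1, which mTOR complex 1 activates and which in turn promotes translation. In controls it stood at 5.20, 5.17, 5.19, 5.19 and 5.13 log2 CPM. In the libraries labelled knockout it stood at 5.001, 5.01, 5.01, 5.06 and 5.01. All 5 knockout libraries lay below all 5 controls, and knockout replicate 4 stood apart from the other knockout libraries on the side of the controls. Means were 36.1 ± 0.723 and 32.4 ± 0.575 CPM (SD, n = 5 each), with a log2 difference of -0.16 (SE 0.06, 95% interval -0.29 to -0.03; limma adjusted p = 0.394, and 0.0146 in the simpler fit). The simpler fit lost Rps6kb1 when knockout replicate 2 or 3 was left out (adjusted p = 0.0555 and 0.0931) and when control replicate 1 was (0.109).

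Eif4ebp1 (ENSMUSG00000031490) encodes 4E-BP1, a repressor that releases the cap-binding protein eIF4E once mTOR complex 1 has phosphorylated it. It ranged from 4.19 to 4.27 log2 CPM in controls and from 4.29 to 4.37 in the libraries labelled knockout. The groups were again separate by a narrow gap, and the log2 difference was 0.09 (SE 0.07, 95% interval -0.06 to 0.23; limma adjusted p = 0.727, and 0.130 in the simpler fit). The 2 main targets of the complex thus had differences of opposite sign. The difference of Tsc1 minus Rps6kb1, a brake against a target, ran from 0.86 to 1.01 in control libraries and from 1.12 to 1.26 in libraries labelled knockout on the log2 CPM scale. This separation follows from that of both genes and was not tested.

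The groups overlapped in Mtor, Rptor, Rictor and Sesn1. Mtor (ENSMUSG00000028991), the kinase itself, stood at 5.51, 5.55, 5.62, 5.57 and 5.64 log2 CPM in controls and at 5.76, 5.68, 5.67, 5.55 and 5.77 in the libraries labelled knockout. Rptor (ENSMUSG00000025583) encodes raptor, which brings substrates to complex 1; it stood at 5.12, 5.24, 5.20, 5.17 and 5.38 in controls and at 5.46, 5.40, 5.38, 5.20 and 5.45 in the libraries labelled knockout. In both genes knockout replicate 4 lay among the controls while the other 4 knockout libraries lay above every control. The log2 difference was 0.11 for Mtor (SE 0.07, 95% interval -0.04 to 0.26; limma adjusted p = 0.655, and 0.212 in the simpler fit). It was 0.16 for Rptor (SE 0.08, 95% interval -0.02 to 0.33; limma adjusted p = 0.544, and 0.164 in the simpler fit). Without knockout replicate 4 the simpler fit passed both, with log2 differences of 0.15 for Mtor (adjusted p = 0.0377) and 0.21 for Rptor (0.0334). Without control replicate 1, with the removed terms counted, the difference was -0.01 for Mtor and -0.02 for Rptor. In the simpler fit without that library it was 0.06 for Mtor and 0.09 for Rptor.

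Rictor (ENSMUSG00000050310), which defines complex 2, ranged from 3.27 to 3.62 log2 CPM in controls and from 3.38 to 3.62 in the libraries labelled knockout. Its difference of 0.09 had the widest interval of the 10, from -0.14 to 0.32 (SE 0.10; limma adjusted p = 0.829, and 0.541 in the simpler fit). With the removed terms counted, leaving out 1 library moved the difference from -0.00078 (knockout replicate 5) to 0.34 (knockout replicate 3). In the simpler fit the difference then ran from 0.04 to 0.16. Sesn1 (ENSMUSG00000038332) encodes a sestrin, a stress-induced protein that restrains complex 1 through GATOR2. It stood at 3.80, 3.86, 3.88, 4.11 and 3.88 log2 CPM in controls and at 4.20, 4.03, 4.13, 3.87 and 4.07 in the libraries labelled knockout. Control replicate 5 was the one control at the level of the knockout group, and knockout replicate 4 the one knockout library at the level of the controls. The Sesn1 difference was 0.15 (SE 0.10, 95% interval -0.06 to 0.37; limma adjusted p = 0.651, and 0.253 in the simpler fit). It was -0.03 without control replicate 1, with the removed terms counted, and 0.09 in the simpler fit without that library. None of these intervals excludes 0, and a p that misses the threshold does not show that the groups were alike.

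**Figure D2:**
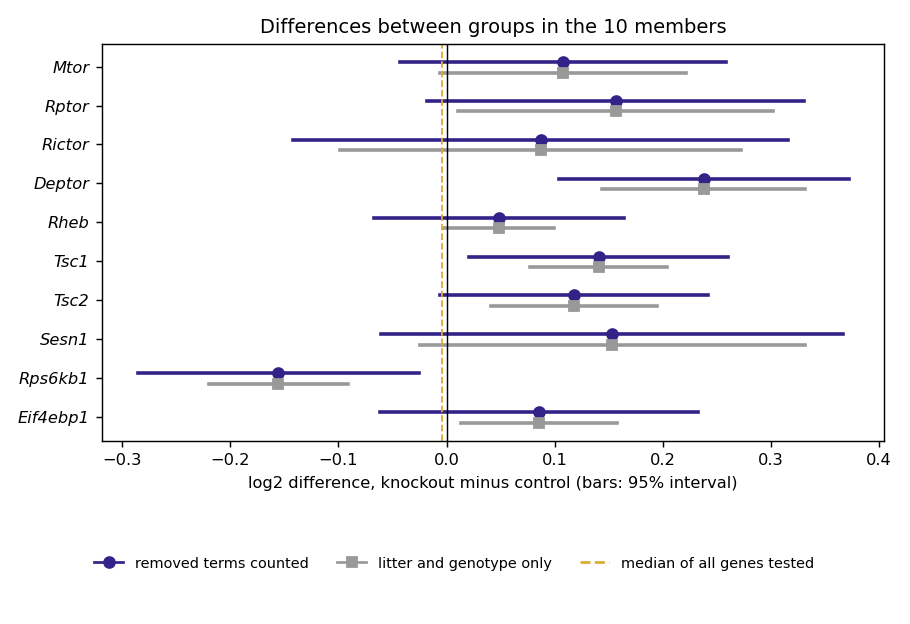
Log2 difference of each member (x axis, knockout minus control) with its 95% interval in the test that counts the removed terms (circles) and in the fit with litter and genotype only (squares); the dashed line marks the median of all genes tested. The intervals of Deptor, Tsc1 and Rps6kb1 exclude 0 before adjustment for many genes, and those of the simpler fit are shorter in every member.

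In the simpler fit the count of members past the threshold moved from 3 to 0 without knockout replicate 3 and to 1 without control replicate 1 or knockout replicate 2. It moved to 6 without knockout replicate 4. The share of all genes past the threshold in the simpler fit moved as well, from 8.62% to 1.33% without knockout replicate 3, 0.826% without control replicate 1, 2.81% without knockout replicate 2 and 11% without knockout replicate 4. Knockout replicate 4 held the lowest value of the knockout group in 6 of the 10 members and the highest in 3. Leaving out control replicate 1 or knockout replicate 3 also takes litter 108 or 110 out of the comparison, since each is the only library of its genotype there.

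Within litters, 8 of the 10 members kept 1 direction in all 3, and the share of all genes that did so was not counted. Because of the adjustment the litters are not independent repeats. Deptor differed by 0.15 in litter 108, 0.18 in litter 110 and 0.34 in litter 112 on the log2 scale. Rps6kb1 differed by -0.20, -0.16 and -0.12 in the same order, and Tsc1 by 0.19, 0.14 and 0.11. The exceptions were Rictor, at -0.06 and -0.10 in litters 108 and 110 and 0.31 in litter 112, and Sesn1, at 0.32, 0.26 and -0.03. Litter 112, which holds knockout replicate 4, had the smallest difference in Mtor (0.05) and Rptor (0.05). These differences rest on 1 or 2 libraries of each genotype and were not tested.

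**Figure D3:**
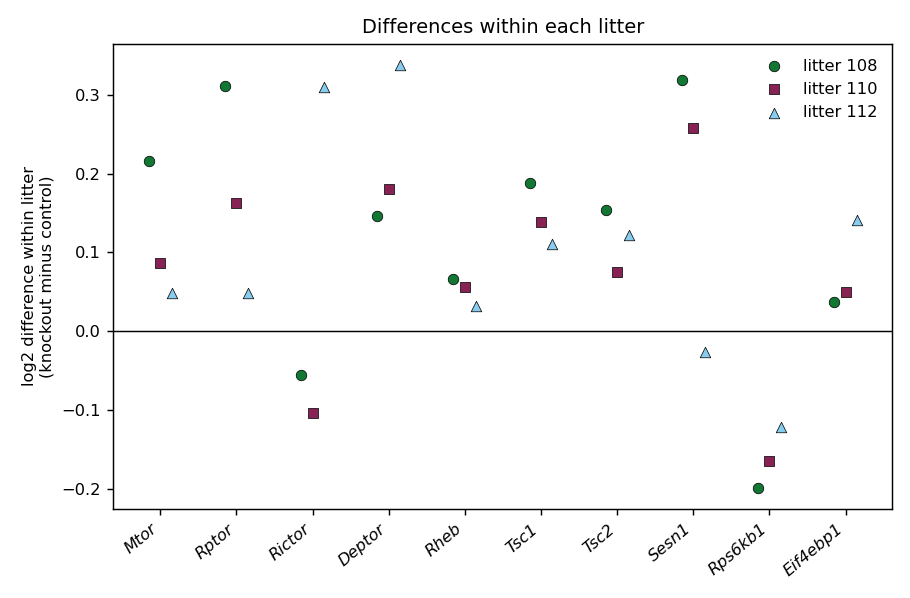
Log2 difference between knockout and control libraries within each of the 3 litters (y axis) for each member. The 3 litters lie on 1 side of 0 in every member but Rictor and Sesn1. The share of all genes that do so was not counted.

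Transcript length moved with the differences and its part in them was not tested. Of the 10 members 7 belong to the longest of 5 length classes of all genes (5384 bases or more in the longest annotated transcript), where the median log2 difference was 0.05 and 66.2% of genes lay above 0. Eif4ebp1, at 1997 bases, belongs to the second shortest class, with a median of -0.03, and its difference was on the other side of 0. When the median of each class was subtracted in each library, the log2 differences were 0.19 for Deptor, 0.09 for Tsc1 and 0.07 for Tsc2. They were 0.06 for Mtor, 0.11 for Rptor and 0.04 for Rictor, while Rps6kb1, itself in the longest class, moved further from 0, to -0.20. No sign changed, and no member passed.

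Markers of other cells were checked because bulk tissue mixes cell types, and fewer cells of a type cannot be told apart from less RNA per cell. The 10 myofibre markers summed to between 78310 and 90219 CPM in controls and between 87813 and 91022 in the libraries labelled knockout, which fits the labelled tissue. All 6 adipocyte markers had differences below 0, with sums of 79.2 to 95.6 CPM in controls and 68.3 to 78.5 in the libraries labelled knockout. In the simpler fit 4 of the 6 were lower, as were 3.48% of all genes tested. None passed with the removed terms counted, where 0.335% of all genes did. The part of adipocyte RNA in the member differences was not tested. Differences also lay below 0 in 4 of 4 macrophage, 3 of 3 nerve, 2 of 2 satellite cell and 5 of 6 fibroblast and tendon markers tested, and in 2 of 4 endothelial ones. Of all genes tested 48.6% lay above 0. Sums of the endothelial, fibroblast and tendon, macrophage, nerve and satellite cell lists overlapped between groups.

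Levels were compared between genes only per kilobase, using the longest transcript annotated for each gene, although muscle may express a shorter one. In controls Tsc2 was highest, at 15.4 ± 0.493 CPM per kb, and Rheb followed at 15.4 ± 0.12 with an overlapping range (SD, n = 5 each, as below). Deptor at 9.47 ± 0.365 and Eif4ebp1 at 9.42 ± 0.195 came next and also overlapped, followed by Tsc1 at 8.87 ± 0.175 and Rps6kb1 at 6.54 ± 0.131. Rptor at 5.67 ± 0.389 and Mtor at 5.58 ± 0.213 did not differ beyond their spread. Sesn1 at 3.95 ± 0.347 and Rictor at 1.15 ± 0.116 were lowest, each apart from its neighbour. Per length, the brakes Tsc1, Tsc2 and Deptor were thus listed above Mtor, and the brake Sesn1 below it. Tsc1 was also listed below Rheb, and the complex 1 subunit gene Rptor above the complex 2 subunit gene Rictor.

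**Figure D4:**
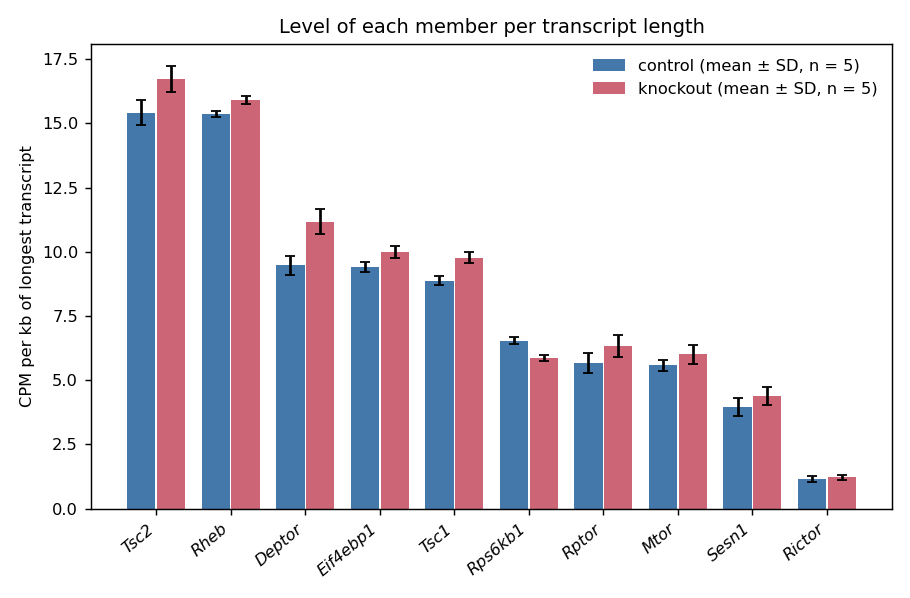
Level of each member per kilobase of its longest annotated transcript (y axis, CPM per kb; bars are means and error bars SD over 5 libraries) in control and knockout libraries, in the order of the controls. Tsc2 and Rheb are highest and Rictor lowest in both groups.

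Among the 45 pairs of members, the Pearson r of deviations from the group means was over 0.8 in size in 14 and ran down to a size of 0.00541. The pairs named next are among these 14. Rptor and Tsc1 had a Pearson r of 0.994 over the 10 libraries, Eif4ebp1 and Deptor 0.967 and Mtor and Rptor 0.884. On the other side stood Sesn1 and Deptor, at -0.978, and Rptor and Rps6kb1, at -0.977. Because the adjusted values hold only 3 dimensions beyond genotype, high correlations arise readily and these are descriptions. For Deptor the 3 most similar genes over all 10 libraries, genotype included, were Pgpep1l (r = 0.997), Lama4 (0.996) and Aldh1a2 (0.996), and 83 genes exceeded 0.95. For Rps6kb1 they were Tmed7 (r = 0.9996), Enox2 (0.999) and Cuedc2 (0.997), and 151 genes exceeded 0.95.

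The rest of the pathway was read from 7 lists with 86 tested genes, none of them a member. Of these 86 genes 1 passed the test, where 0.335% of all genes tested did. The gene is Flcn, which encodes folliculin, the protein that activates RagC and RagD. It was at 5.98 ± 0.04 log2 CPM in controls and 6.52 ± 0.07 in the libraries labelled knockout (SD, n = 5 each), a log2 difference of 0.53 (SE 0.06; limma adjusted p = 0.00665). The Flcn call was lost without control replicate 1 or 6 (limma adjusted p = 0.218 and 0.0983) or knockout replicate 2 or 3 (0.0555 and 0.0645). With no trend on mean expression in limma it was lost as well (0.231). Of all genes only 0.0409%, 0.00818%, 0.09% and 0.172% passed without those libraries, in that order, and 0.00818% with no trend. The simpler fit passed 8 of the 86, 4 higher and 4 lower, a share near the 8.62% of all genes tested that it passed. The median log2 difference over the lists was 0.01. The simpler fit's 8 became 13 without knockout replicate 4, and 12, 12 and 9 without control replicate 4, 5 or 6. Of all genes 11%, 8.28%, 14% and 9.04% then passed. The 8 became 6, 4, 2 and 5 without knockout replicate 1, 2, 3 or 5, where 3.71%, 2.81%, 1.33% and 3.93% of all genes passed. Without control replicate 1 or 3 the 8 became 1 and 5, where 0.826% and 3.24% of all genes passed.

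In the list of Rag GTPases, Ragulator and folliculin, 1 of 13 was higher in the test and none lower, with a median of -0.02. Of all genes tested 0.270% were higher and 0.0655% lower. Of the 13 genes 6 lay above 0 and 7 below. All 5 Ragulator subunit genes, a subset of this list, lay below 0, where 48.6% of all genes tested lay above it. The subset was not one of the lists chosen for the pathway and was not tested. Lamtor2 and Lamtor5 belong to the shortest of the 5 length classes, where 35.8% of genes lay above 0. The part of transcript length was not tested. With length-class centring Lamtor2 differed by -0.14. Lamtor2, a subunit of this lysosomal anchor for the Rags, was at 4.79 ± 0.01 log2 CPM in controls and 4.61 ± 0.01 in the libraries labelled knockout (SD, n = 5 each). Its log2 difference was -0.18 (SE 0.06; limma adjusted p = 0.326, and 0.00523 in the simpler fit), and Lamtor5 differed by -0.15 (adjusted p = 0.487, and 0.0234 in the simpler fit). Fnip2, a partner of folliculin, differed by 0.26 (adjusted p = 0.487), and by 0.0095 and 0.06 without control replicate 1 or knockout replicate 3. Lamtor5 was named after its value was seen.

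Of 19 genes of amino acid sensing, none passed in either fit, 9 lay above 0 and 10 below, with a median of -0.03. Bmt2, the S-adenosylmethionine sensor SAMTOR, differed by -0.15 and Sec13, shared by GATOR2 and the coats of secretory vesicles, by -0.10 (limma adjusted p = 0.617 and 0.640). Of 7 other subunit and assembly genes of the mTOR complexes, none passed in either fit and the median was 0.01. Mlst8, a subunit of both complexes, differed by -0.09, the complex 2 gene Prr5 by -0.22 and Telo2, which helps fold the kinase, by 0.09 (adjusted p = 0.757, 0.795 and 0.815). Without control replicate 1, with the removed terms counted, Mlst8 was at 0.04 and Telo2 at -0.05. Prr5 ran from -0.75 without control replicate 1 to -0.00072 without knockout replicate 4.

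Of 13 upstream kinases and stress brakes, none passed in either fit and 10 lay above 0, with a median of 0.05. Akt1 and Akt2, the kinases that inactivate the TSC complex in response to insulin, differed by 0.15 and 0.10 (limma adjusted p = 0.443 and 0.579), and Gsk3b, a kinase that AKT inhibits, by 0.11 (0.554). Of 16 translation targets, none passed the test and the median was 0.02. Pdcd4, a repressor of the helicase eIF4A that S6K1 marks for degradation, differed by -0.19 (adjusted p = 0.490, and 0.0322 in the simpler fit). Larp1, a repressor of ribosomal protein mRNAs, and Eef2k, which slows elongation, differed by 0.09 and 0.08 (adjusted p = 0.672 and 0.684), the second being at -0.003 without control replicate 1.

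Of 11 other substrates of mTOR, none passed the test, and the median was -0.02. Ulk1, the kinase that starts autophagy, was at 6.62 ± 0.06 log2 CPM in controls and 6.92 ± 0.07 in the libraries labelled knockout (SD, n = 5 each). Its log2 difference was 0.30 (SE 0.06; limma adjusted p = 0.0886, and 0.00615 in the simpler fit). Lpin1, a lipid phosphatase that also acts in the nucleus, differed by 0.19 (adjusted p = 0.310, and 0.0217 in the simpler fit), and Tfeb, a transcription factor of lysosomal genes, by -0.20 (0.321, and 0.0185 in the simpler fit). Of 7 amino acid transporters none passed the test, and the median of 0.22 was the highest of the 7 lists. Slc7a5, the leucine transporter LAT1, differed by 0.42 (SE 0.14; limma adjusted p = 0.321, and 0.00695 in the simpler fit) from a low level of 1.19 ± 0.05 log2 CPM in controls. Slc36a1, a lysosomal exporter of small amino acids, and Slc38a2, the glutamine transporter SNAT2, differed by 0.23 and 0.22 (adjusted p = 0.426 and 0.356).

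**Figure D5:**
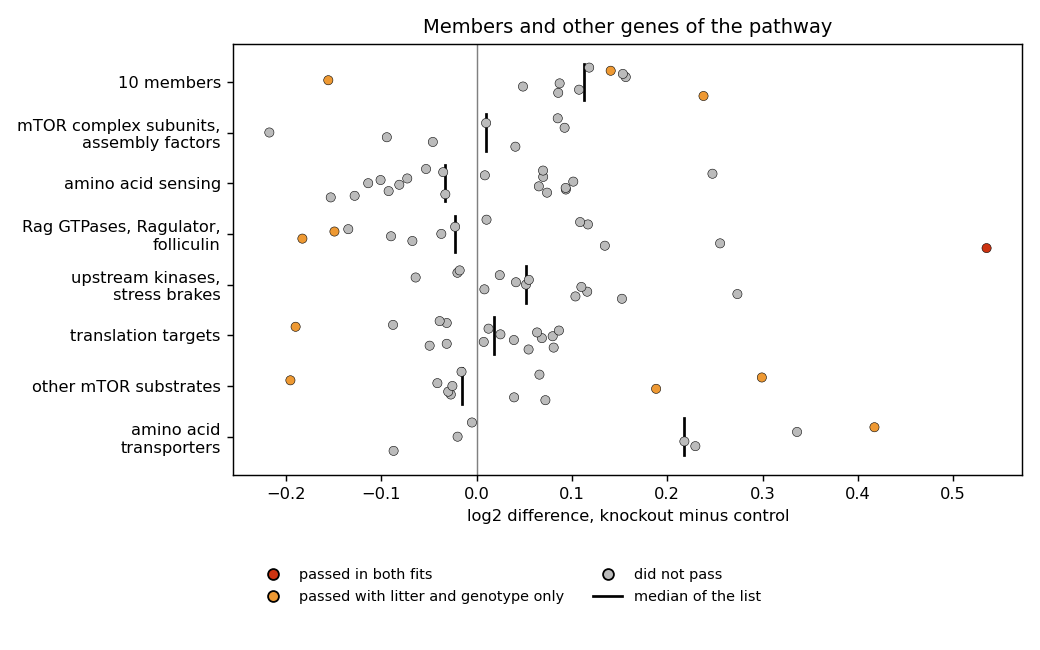
Log2 difference between knockout and control libraries (x axis) for the 10 members and the 86 other tested genes of the pathway, by list; each point is a gene and each vertical line the median of its list. Flcn, at 0.53, is the gene that passed in both fits; the 3 members and 7 other genes in orange passed with litter and genotype only.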

How the data were processed

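RNA was extracted with TRIzol and sequenced from oligo-dT stranded libraries of whole tibialis anterior, per the labels' protocols. The authors deposited adjusted log2 CPM values for 13492 genes. The submitters' processing notes name fastp, kallisto and limma. Not given in the sources used here are the build, annotation, versions, depth and the terms of the adjustment. Groups and litters were taken from the labels.

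Genes with a mean of 0 log2 CPM or more (12223) were tested two-sided in R 4.3.3 by limma 3.58.1, with a mean-expression trend in eBayes and Benjamini-Hochberg adjustment over all of them. The 1269 genes below it were not tested, and all 10 members were. Terms were litter, genotype and 3 directions along which the deposited values no longer vary, which leaves 3 residual degrees of freedom. How far those terms overlapped genotype is unknown, so standard errors are lower bounds. No permutation test was run, since values adjusted with genotype kept are not exchangeable between groups.

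The members and pathway lists were chosen with earlier results of these data known. The text names all members, Lrtm1, the 3 genes with the smallest p in each pathway list, and the 3 genes most correlated with each of the 2 members with the smallest p. One gene that this rule names is not reported here. Promoter sequences come from RefSeq (GRCm38.p6), and transcript lengths from GENCODE M21, which gave one for 99.1% of tested genes. Alternatives were fits without the removed terms, without litter or with a replicate block, no trend, a minimum of 2 log2 CPM or none, a pseudocount of 1 CPM, another scaling, length-class centring and leaving out each library.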

Additional observations from a re-analysis of the deposited data

Results flagged for a closer look

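In 2 of 22 groups checked (the 10 members and Lrtm1 in both genotypes), 1 library stood apart from the other 4 by Dixon's test, which by chance does so in about 1 in 20 groups. Rps6kb1 in knockout replicate 4 was at 5.064 log2 CPM, the highest of the libraries labelled knockout, with the next at 5.014. That gap took up 0.796 of the range of the group, and the value still lay below all 5 controls. Sesn1 in control replicate 5 was at 4.114 log2 CPM, the highest control, with the next at 3.884, a gap of 0.723 of the range. The cause of either was not tested.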

How the results depend on the processing

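Over 29 other settings the 10 member differences kept their direction and their side of the threshold in 254 of 290 values, passed it in 32 and changed sign in 4. All 32 passes came from fits with litter and genotype only or with genotype only, which do not count the removed terms. With the removed terms counted, 0 members passed without any 1 library, where 0.00818% to 0.442% of all genes did. Differences then ran from 0.19 to 0.34 for Deptor, 0.08773 to 0.16 for Tsc1, 0.07407 to 0.1756 for Tsc2 and -0.18 to -0.11 for Rps6kb1. Highest values, without knockout replicate 4, were 0.1684 for Mtor, 0.2326 for Rptor, 0.2352 for Sesn1 and 0.1158 for Eef2k, and Mlst8 was lowest at -0.1591 without control replicate 6. The sign changes came without control replicate 1 (Mtor -0.01364, Rptor -0.01649, Sesn1 -0.03145) and without knockout replicate 5 (Rictor -0.0007815). In the simpler fit no member changed sign without any 1 library. Removed terms were found with all 10 libraries, so leaving 1 out also moves the difference through them. Among named pathway genes Eef2k (-0.003143), Mlst8 (0.04169) and Telo2 (-0.05208) changed sign without control replicate 1, and Telo2 (-0.001144) without knockout replicate 1.

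With litter and genotype only, 3 members and 8 pathway genes passed, as did 8.62% of all genes. The members were Deptor at 0.238, Tsc1 at 0.1406 and Rps6kb1 at -0.1556. With genotype only, 5 members and 23 pathway genes passed, as did 21.3% of all genes. This setting added Tsc2 at 0.1181 (adjusted p = 0.0137 by limma) and Eif4ebp1 at 0.08559 (0.0317). With 8 degrees of freedom it ignores that litter and the 3 removed terms were already gone from the values. The p-values of this setting therefore overstate the evidence, and neither added pass can be taken at face value. With no trend 0 pathway genes passed, and without 1 library at a time 0 to 1. Of all genes 0.00818% passed with no trend, and 0.00818% to 0.442% without 1 library, against 0.335% in the main fit. In the fit with litter and genotype only, chosen for this after seeing the data, leaving out 1 library gave 0 to 6 members and 1 to 13 pathway genes. The share of all genes that passed then ran from 0.826% to 14%. Ranges were 0.06418 to 0.1541 for Mtor, 0.09467 to 0.2147 for Rptor, 0.1217 to 0.1591 for Tsc1, 0.09853 to 0.1361 for Tsc2, -0.1709 to -0.1387 for Rps6kb1 and 0.2049 to 0.2746 for Deptor. Lrtm1 was at 0.4369 with no trend (limma adjusted p = 0.315), 0.3881 with length-class centring (0.0527) and 0.3052 to 0.5025 without 1 library, where adjusted p ran from 0.0169 to 0.640. The cause was not tested.

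The replicate numbers shared by both groups were not used as pairs in the main fit, and 1 number spans different litters. Deviations of same-numbered libraries correlated at -0.846, 0.452, 0.0316 and -0.502. Litter had been taken out of the values, which ties the deviations within a litter together. These correlations therefore cannot show whether the numbers pair samples. With the replicate block, in 8 libraries and without the removed terms, 0 members and 2 pathway genes passed (Flcn and Ulk1), and 127 of all genes against 41. Depth limits could not be given from adjusted values.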
